A study of Mus musculus with 48 samples.

Results

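The 2 fluorescent labels compared here are both meant to mark astrocytes of the mouse olfactory bulb. One is mCherry named after the Gfap gene (Gfap-mCh), the other is GFP named after the Aldh1l1 gene (Aldh1l1-GFP). The question was which cells each sort collected, judged by RNA. The members are 6 of the 48 libraries of the series, chosen by their labels. They are 3 mCh astrocyte libraries from control mice of genotype Slc22a3-FF with treatment Gfap-mCh (flox control, here the mCh libraries) and 3 GFP astrocyte libraries from mice of genotype Aldh1l1-GFP with treatment CNO-control (the GFP libraries). The labels do not state what CNO-control mice were given, how Gfap-mCh was delivered, or the age of the mice. Genotype, treatment, label and deposited table all change together between these groups, so none of them can be told apart from the label itself. The labels number the libraries without stating that each came from its own animal, and p-values therefore measure the spread between libraries, which may be technical.

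Astrocytes take up glutamate and GABA, buffer potassium and water, and are joined by gap junctions. In the olfactory bulb they lie beside olfactory ensheathing glia, a cell type that wraps the incoming axons of sensory neurons and shares several genes with both astrocytes and Schwann cells. Microglia and border-associated macrophages are the resident macrophages of the brain and its coverings, and they arise from a different lineage than astrocytes. Gfap encodes an intermediate filament and Aldh1l1 an enzyme of folate metabolism.

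Polyadenylated RNA was sequenced from 10 ng of total RNA per library. The mCh libraries held 9688168, 12459171 and 8911746 gene reads and the GFP libraries 6619479, 8577907 and 7151085. All values below are normalised reads, that is, read counts recovered from 2 separately normalised tables and scaled together by 1 size factor per library, unless another scale is named. A difference is mCh minus GFP in log2(normalised reads + 1), given ± its standard error. Calls are genes with a limma p under 0.05 after Benjamini-Hochberg adjustment. Of 13347 genes tested, 3477 (26.1%) were called, of which 1862 (14%) were higher and 1615 (12.1%) lower in the mCh libraries. The median difference over all tested genes was 0.06. The split depended on scaling: 2467 genes were higher and 1197 lower after scaling by total reads, which moved the median of all genes to 0.30. With quantile normalization 1649 were higher and 1755 lower, at a median of -0.12.

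Both genes after which the labels are named were lower in the mCh libraries. Gfap lies on chromosome 11 (102887336 to 102900912, minus strand) and Aldh1l1 on chromosome 6 (90486427 to 90600203, plus strand) in GENCODE's mouse annotation of GRCm38. Their 250 bases before the RefSeq start site are shown because the labels carry these genes' names. The promoter fragments used to build the labels are not given in the labels and may differ from these.
Gfap (chr11:102897201-102897450, minus strand): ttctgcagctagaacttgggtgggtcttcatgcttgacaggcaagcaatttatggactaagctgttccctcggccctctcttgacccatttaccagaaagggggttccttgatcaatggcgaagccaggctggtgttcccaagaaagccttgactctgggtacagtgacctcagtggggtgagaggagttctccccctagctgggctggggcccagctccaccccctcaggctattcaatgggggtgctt
Aldh1l1 (chr6:90550543-90550792, plus strand): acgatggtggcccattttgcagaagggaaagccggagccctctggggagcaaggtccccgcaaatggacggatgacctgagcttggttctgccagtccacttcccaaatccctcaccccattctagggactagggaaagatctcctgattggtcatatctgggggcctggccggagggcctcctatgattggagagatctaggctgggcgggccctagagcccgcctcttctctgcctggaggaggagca
Gfap had 341, 332 and 147 normalised reads in the mCh libraries against 2282, 1279 and 1215 in the GFP libraries. This was a difference of -2.57 ± 0.36, or 5.96-fold lower, with an adjusted p of 0.000411. Aldh1l1 had 77.5, 209 and 168 normalised reads in the mCh libraries against 1116, 688 and 909. It was 6.31-fold lower, a difference of -2.66 ± 0.37 with an adjusted p of 0.000414. The groups did not overlap for either gene, so the sort named after Gfap held less Gfap RNA than the sort named after Aldh1l1.

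All 20 astrocyte markers were tested and all 20 fell in the mCh libraries, against 12.1% of all genes, with differences from -3.99 to -1.19 and a median of -2.88. Slc1a2, the main glutamate transporter of astrocytes, had 14823, 39624 and 15895 normalised reads in the mCh libraries against 291750, 210830 and 219867 in the GFP libraries, 11.3-fold lower (adjusted p 7.02e-05). Aqp4, the water channel of astrocyte end-feet, had 3331, 5279 and 3649 against 45156, 39617 and 38570, 10.2-fold lower. Sox9, a transcription factor of the astrocyte lineage, had 297, 555 and 343 against 5498, 4447 and 4546, 12.5-fold lower (adjusted p 8.14e-06). In each of these genes the lowest GFP library exceeded the highest mCh library. The smallest fall in the list was that of S100b, a calcium-binding protein, with 658, 1148 and 640 against 2017, 1841 and 1564 and a difference of -1.19 ± 0.25. Slc1a3, the second glutamate transporter of the list, fell by 2.78. Astrocyte RNA was nonetheless present in every mCh library: the 20 markers summed to 7710, 15933 and 8556 reads per 1000000 gene reads (RPM) there, against 67788, 59290 and 59509 in the GFP libraries. In bulk RNA, fewer cells of a type and less RNA per cell cannot be told apart.

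**Figure D1:**
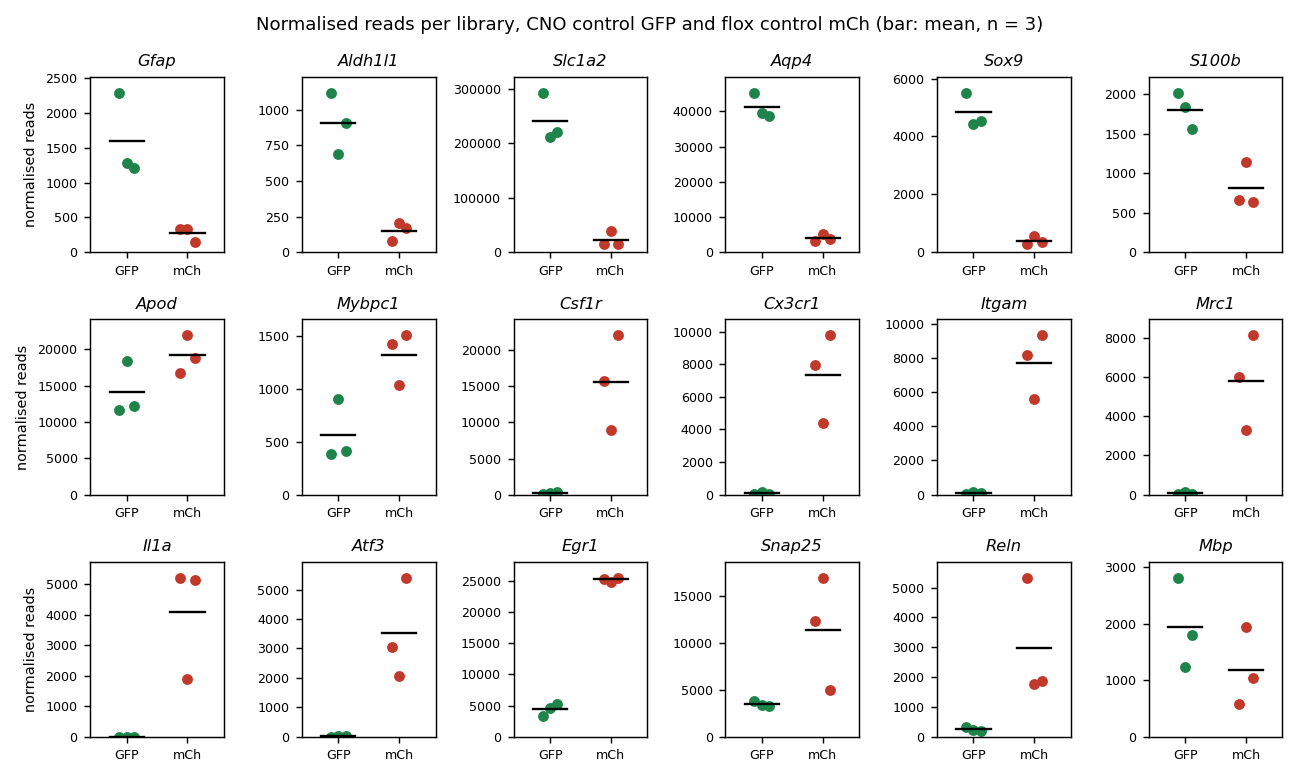
Normalised reads of 18 genes in each of the 6 libraries (vertical axes from 0, points are libraries, bars are the means of 3). The 6 genes of the top row, all astrocyte genes, are higher in the GFP libraries, the macrophage, cytokine and immediate early genes Csf1r, Cx3cr1, Itgam, Mrc1, Il1a, Atf3 and Egr1 are higher in the mCh libraries, and Apod and Mbp overlap between the groups.

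The genes of microglia moved the other way. All 16 markers of microglia were tested and all 16 rose in the mCh libraries, against 14% of all genes, by 2.30 to 7.39 with a median of 6.25. Csf1r, the receptor on which microglia depend for survival, had 15735, 8924 and 22082 normalised reads against 120, 216 and 313, a difference of 6.17 ± 0.38 or 72.1-fold (adjusted p 4.73e-06). Cx3cr1, the fractalkine receptor, had 7968, 4368 and 9786 against 27.1, 145 and 36.5, a difference of 7.03 ± 0.53. P2ry12, a purine receptor of microglial processes, had 12232, 7900 and 23300 against 346, 646 and 446. No mCh library came near the GFP range for these 3 genes, and the second mCh library was the lowest of its group in each. The 16 markers summed to 10506, 6179 and 13811 RPM in the mCh libraries and to 171, 262 and 216 in the GFP libraries. Of the 14 genes listed for homeostatic microglia, 9 of them also among the markers, 13 rose. The exception was Cst3, a cysteine protease inhibitor that astrocytes also express, with a difference of 0.09. Of these 14 genes, 3 were under 10 normalised reads in at least 1 GFP library.

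The first 250 bases before the start of Itgam and Trem2 are shown with matches to GAGGAA, the core letters of sites of the macrophage factor PU.1, in capitals (either strand, so TTCCTC marks the reverse strand). Itgam encodes a complement receptor subunit and Trem2 a lipid-sensing receptor, and both are markers of microglia in the list above.
Itgam (chr7:128062390-128062639, plus strand): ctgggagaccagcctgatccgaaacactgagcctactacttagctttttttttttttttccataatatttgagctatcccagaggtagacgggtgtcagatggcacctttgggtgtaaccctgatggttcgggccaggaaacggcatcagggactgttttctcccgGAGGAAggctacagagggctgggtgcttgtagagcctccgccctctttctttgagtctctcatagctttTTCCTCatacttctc
Trem2 (chr17:48346151-48346400, plus strand): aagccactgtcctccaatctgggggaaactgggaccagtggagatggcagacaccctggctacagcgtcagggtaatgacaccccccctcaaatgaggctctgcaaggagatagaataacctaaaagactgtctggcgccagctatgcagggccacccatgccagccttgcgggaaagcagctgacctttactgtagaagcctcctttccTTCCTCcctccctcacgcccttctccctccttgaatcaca
RefSeq promoters (GRCm38.p6) were found for 10 of the 16 microglia markers, and 6 of them (60%) held the letters GAGGAA on either strand. The same letters stood in 25.85% of the promoters of all 27025 genes and in 6 of the 17 astrocyte markers with a promoter (35.3%). The half-site of NFI factors, TTGGCA, stood in 2 of those 17 (11.8%), against 14.1% of all genes. These matches describe letters in a window and were not tested. Itgam had 8189, 5612 and 9339 normalised reads in the mCh libraries against 60.2, 153 and 97.0, a 77.4-fold difference. Trem2 had 510, 306 and 590 against 13.5, 5.25 and 0.

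Markers of border-associated macrophages rose in 9 of 10 cases, with a median of 5.77. Mrc1, the mannose receptor, had 5979, 3278 and 8134 normalised reads against 18.1, 129 and 42.8, a difference of 6.83 ± 0.58. Stab1, a scavenger receptor, rose by 5.81 and Cd163, the haemoglobin scavenger receptor, by 5.71. Pf4, Ms4a7 and Clec12a had no read in any GFP library. Measured against a floor of 3 reads over the GFP group, they were at least 78.4-fold, 79.0-fold and 45.5-fold higher in the mCh libraries. Cbr2 did not pass (difference 1.56, adjusted p 0.19). With these 3 genes at their bounds the list's median was 5.76. Of the 10 genes, 7 were under 10 normalised reads in at least 1 GFP library, as were 4 of the 16 microglia markers, so their passing the filter depended on the mCh libraries.

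Blood cells left little RNA in these libraries. Of 10 markers of monocytes and neutrophils, 8 were too low to test in these 6 libraries. The neutrophil granule genes Mpo and Lcn2 had no read in any of them, and S100a8 had 8 reads in the mCh group. Csf3r, the granulocyte colony-stimulating factor receptor, stood apart from that list with 1346, 702 and 1084 normalised reads against 0, 6.29 and 2.52. The monocyte receptor Ccr2 had 54.6, 46.7 and 25.4 against 25.6, 0 and 2.52 and did not pass (adjusted p 0.0588). Of the T and NK cell markers, Cd4 was the single one high enough to test. It had 59.3, 41.8 and 135 against 0, 2.10 and 0, a ratio of group totals of 87.5 with a 95% counting interval of 24 to 726. The T cell receptor components Cd3e and Cd3g had no read in any of these 6 libraries, nor had the B cell genes Ms4a1 and Pax5. Other genes of these lists had reads in the mCh group and 0 in the GFP group. Among them, the B cell genes Cd79b and Cd79a had 72 and 7 reads. The T and NK cell genes Cd8a and Klrd1 had 10 and 11. Cd3e had 26 reads in the mCh libraries labelled Slc22a3-cKO, which are described below.

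Markers of olfactory ensheathing glia did not fall with those of astrocytes. Of 12 markers, 11 were tested, 2 rose and none fell in limma, with a median of 0.41 (all genes 0.06); 0 genes of this list fell in edgeR or DESeq2 either. The share that rose, 18.2%, was near the 14% of all tested genes and is no result about the list. Mybpc1, a myosin-binding protein, had 1417, 1035 and 1504 normalised reads in the mCh libraries against 384, 905 and 407 in the GFP libraries, a difference of 1.32 ± 0.32 (adjusted p 0.0114). Npy, neuropeptide Y, had 1509, 1417 and 2419 against 717, 1407 and 749, a difference of 0.92 ± 0.30 (adjusted p 0.0422). The mCh libraries lay above the GFP libraries for both, though by a small margin for Npy. Apod, an apolipoprotein abundant in ensheathing glia, had 16760, 21908 and 18760 against 11649, 18396 and 12186, and its groups overlapped (adjusted p 0.165). Frzb, a Wnt antagonist, had 2854, 2972 and 4331 against 1445, 3376 and 2378 and also overlapped (adjusted p 0.201). Ptn, Sox10 and Fabp7 did not pass either, with differences of 0.22, 0.50 and 0.41. Of the 11 tested markers, 7 had a difference above 0, all of them named here. The other 4 lay below 0, the lowest at -0.82. A difference that does not pass does not show equal levels. The count of higher genes was 3 with scaling by total reads and 5 with quantile normalization. Without the second mCh library 2 rose and 1 fell. None was called without the first or the third GFP library, without the mean-variance trend, or in 1 fit over 12 libraries.

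**Figure D2:**
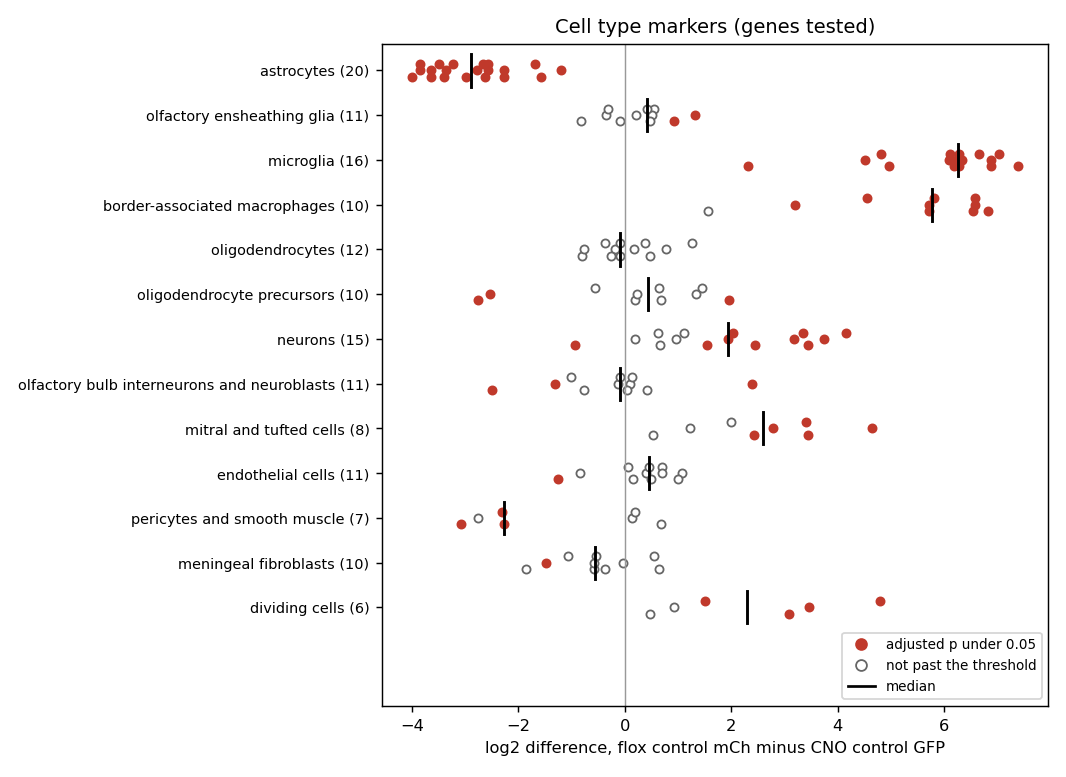
Difference of each tested cell type marker, mCh minus GFP, in log2 (horizontal axis, with 1 row per list and the number tested in brackets). Filled points passed the adjusted p threshold and the black line is the list's median: astrocyte markers lie between -3.99 and -1.19, microglia markers between 2.30 and 7.39, and ensheathing glia and oligodendrocyte markers lie around 0.

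Because markers differ in length, levels of different cell types were compared as RPM per kilobase of exon, taking the median over each list. In the mCh libraries the median microglia marker stood at 203, 112 and 226, the median ensheathing glia marker at 78.0, 83.0 and 99.6, and the median astrocyte marker at 37.6, 50.6 and 42.6. In the GFP libraries the median astrocyte marker stood at 145, 167 and 143, that of ensheathing glia at 36.1, 73.5 and 57.1, and that of microglia at 1.65, 2.93 and 2.15. The order of the 3 lists was therefore microglia, ensheathing glia, astrocytes in each mCh library and astrocytes, ensheathing glia, microglia in each GFP library. These medians compare chosen markers and do not give shares of cells.

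None of the 12 oligodendrocyte markers was called in limma, edgeR or DESeq2, and their median was -0.09. Mbp, myelin basic protein, had 584, 1931 and 1031 normalised reads against 2812, 1224 and 1791, with overlapping groups (adjusted p 0.18). The second mCh library was the highest of its group for Mbp and 10 other markers of the 12, and without it 4 of 11 tested markers were lower. The counts in the next lists are small, and shares of 10% to 20% are near those of all genes. Among 10 markers of oligodendrocyte precursors, Lhfpl3 rose by 1.95, while Olig1 and Olig2, transcription factors that olfactory bulb astrocytes can also express, fell by 2.77 and 2.54. Among 11 endothelial markers tested, Slc2a1, the glucose transporter that astrocytes also make, fell by 1.26, and none rose. The pericyte genes Pdgfrb, Notch3 and Rgs5 fell by 2.32, 3.09 and 2.28, 3 of 7 tested (42.9%, against 12.1% of all tested genes). Of these 7, 4 were under 10 normalised reads in at least 1 mCh library, so their passing the filter depended on the GFP libraries. Another 4 pericyte genes were too low to test. Igf2, an insulin-like growth factor made by the meninges, fell by 1.48 and was the single gene called of 10 meningeal markers. Of 6 tested genes of dividing cells, 4 rose, among them Mki67 with 107, 198 and 214 against 16.6, 11.5 and 0. Of these 6, 5 were under 10 normalised reads in at least 1 GFP library, so their passing the filter depended on the mCh libraries. Another 4 genes of the list were too low to test. Ependymal and red blood cell markers gave no call among the 3 genes tested.

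Neuronal RNA was also higher in the mCh libraries. Of 15 general neuronal markers, 9 rose and 1 fell, with a median of 1.94. Stmn2, a tubulin-binding protein of growing neurites, had 1078, 419 and 340 normalised reads against 40.6, 51.4 and 29.0, 13.3-fold higher. Snap25, a synaptic vesicle fusion protein, had 12262, 16926 and 5006 against 3806, 3409 and 3285, a difference of 1.54 ± 0.36 (adjusted p 0.00895), which did not pass in limma without the mean-variance trend. The third mCh library was the lowest of its group for both. Map2, a microtubule protein of dendrites, was the exception and fell by 0.94. Of the 15 general markers, 3 were under 10 normalised reads in at least 1 GFP library, as were 3 of 8 markers of mitral and tufted cells. Markers of mitral and tufted cells, the projection neurons of the bulb, rose in 5 of 8 cases, with a median of 2.60. Reln, an extracellular protein of these cells, had 5336, 1782 and 1855 against 331, 239 and 185, 10.6-fold higher. Tbx21, a transcription factor specific to them in the bulb, had 108, 21.5 and 82.8 against 1.51, 4.20 and 0. Markers of bulb interneurons and neuroblasts gave 1 higher gene, Calb2 (2.39), and 2 lower ones, Sp8 (-2.49) and Etv1 (-1.32), of 11 tested. These shares, 9.09% higher and 18.2% lower, were near the 14% and 12.1% of all tested genes. The inhibitory genes Gad1 and Gad2 had differences of 0.96 and 0.20 that did not pass.

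Synaptic genes and voltage-gated channels were mixed. Of 20 synaptic genes 7 rose and 2 fell, with a median of 0.47 that turned to -0.15 without the second mCh library. The shares were 35% higher and 10% lower for synaptic genes, and 40% and 6.67% for channels. Over all tested genes they were 14% and 12.1%, so neither list fell beyond the share of all genes. Syp, a synaptic vesicle protein, rose by 2.17, and the glutamate receptor subunits Gria1 and Gria2 fell by 2.15 and 1.56. Of 15 channels 6 rose, among them the calcium channels Cacna1b (3.37) and Cacna1e (2.71) and the sodium channel Scn1a (2.10). The potassium channel Kcna2 fell by 0.91.

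The functional genes of astrocytes fell with the markers, and several are on the marker list as well. Of 12 tested genes of glutamate and GABA uptake and the glutamine cycle, 9 (75%) fell and 2 (16.7%) rose, with a median of -2.75. Of all tested genes 12.1% fell and 14% rose, so the share of this list that rose was near that of all genes. The GABA transporter gene Slc6a11 had 2161, 7784 and 2196 normalised reads against 49400, 37576 and 38518. Slc38a3, a glutamine transporter, fell by 2.97. The glutamine carrier Slc38a1 was among the genes that rose (1.33). Of 12 genes of potassium and water handling, the sodium pump and gap junctions, 10 (83.3%) fell and Slc12a2, a chloride importer, rose (0.83). Kcnj10, the inward-rectifying potassium channel of astrocytes, had 2386, 5912 and 3208 against 38217, 27276 and 28460, 8.68-fold lower. Gjb6, a gap junction subunit, fell by 3.85.

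Astrocyte transcription factors fell in 16 of 20 cases (80%, against 12.1% of all tested genes), with a median of -2.56. Rorb, a nuclear receptor, had 496, 1930 and 615 normalised reads against 13044, 11168 and 10630, 13.8-fold lower. Id4 fell by 3.53 and Hopx by 3.18. The Notch targets Hes1 and Hes5 had differences of 0.97 and 0.90 that did not pass. Of 15 secreted or surface factors by which astrocytes build or prune synapses, 11 (73.3%) fell, led by the glypican Gpc5 (-3.91) and the BMP antagonist Chrdl1 (-3.41). Thbs1, a thrombospondin, and Sparc rose by 1.33 and 0.74, although Thbs1 overlapped between the groups. This share of 13.3% was near the 14% of all tested genes. Of 11 tested genes of filaments and reactive astrocytes, Gfap fell, while Ggta1 (1.58) and Cd14 (6.54), a lipopolysaccharide receptor of macrophages, rose. These shares, 18.2% higher and 9.09% lower, were near the 14% and 12.1% of all tested genes. Another 4 genes of this list were too low to test. Vim, vimentin, had 783, 852 and 1240 against 1567, 1628 and 1245 (adjusted p 0.0618).

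**Figure D3:**
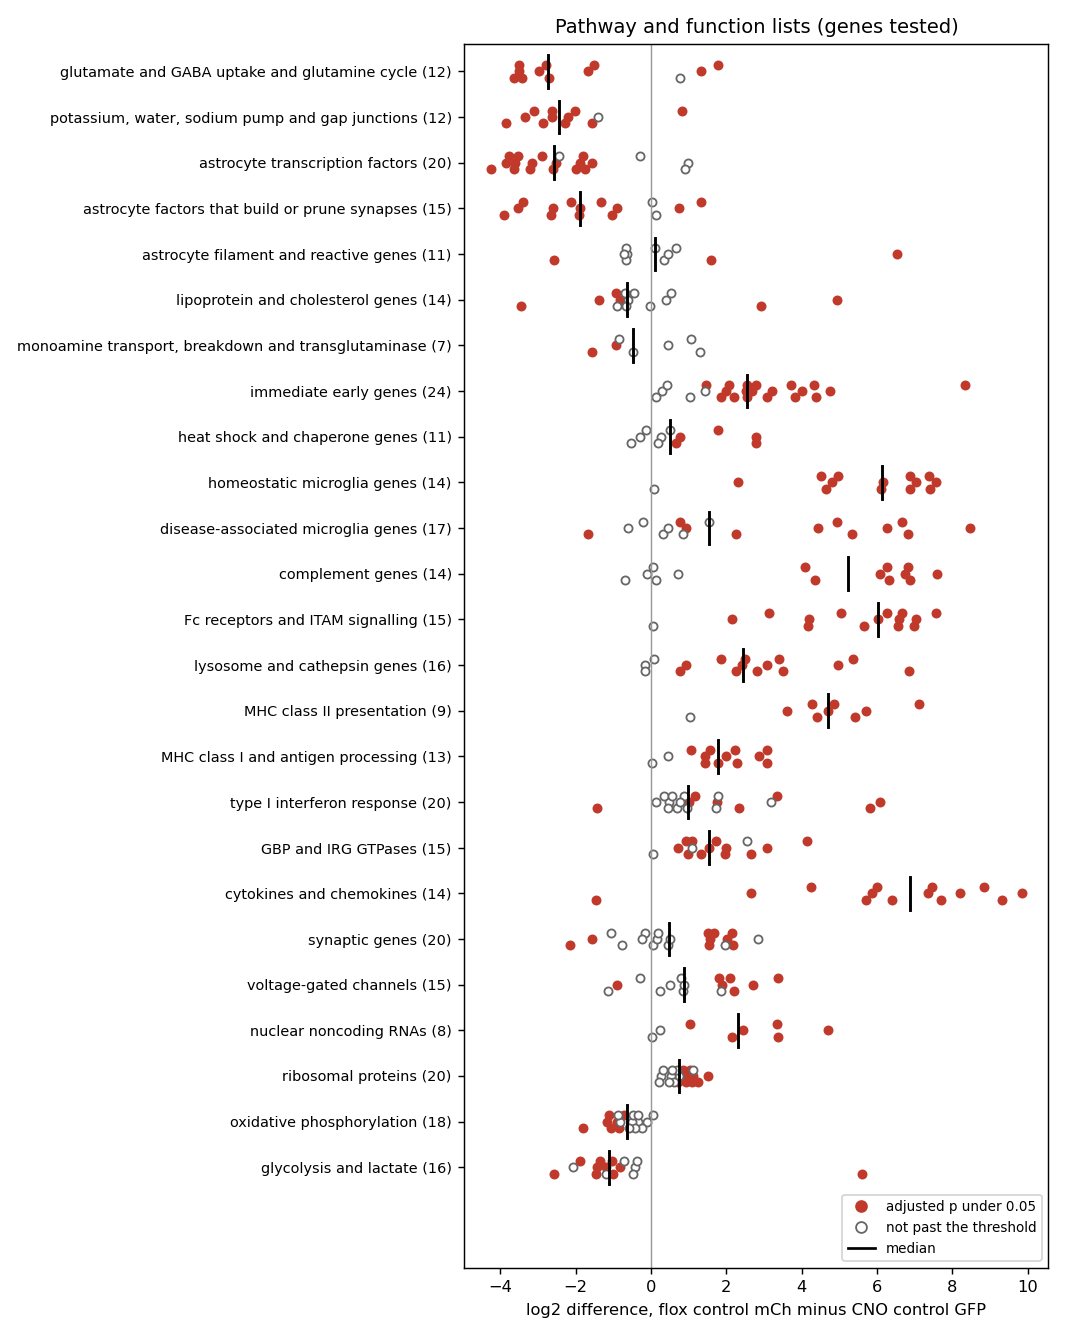
Difference of each tested gene of 25 pathway and function lists, mCh minus GFP, in log2, drawn as for the cell type markers. The 4 lists of astrocyte function at the top lie mostly below 0, the macrophage and cytokine lists lie mostly above 0, and single genes such as Axl and Il18 lie opposite to their lists.

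Genes of macrophage function were higher in the mCh libraries. The share of all tested genes that rose was 14%. Of 15 genes of Fc receptors and ITAM signalling, 14 rose, as did 9 of 14 tested complement genes. Of the tested genes of these lists, 9 of 15 and 6 of 14 were under 10 normalised reads in at least 1 GFP library. None of the lysosome genes was, and they rose in 13 of 16 cases (median 2.45). Ctss, a cysteine protease of antigen-presenting cells, had 5037, 2947 and 8053 normalised reads against 18.1, 83.9 and 46.6. Of 17 genes listed for disease-associated microglia, 6 were under 10 normalised reads in at least 1 GFP library. Of the 17, 10 rose and Axl, a receptor tyrosine kinase, fell. Axl had 702, 734 and 981 against 2754, 2367 and 2490, 3.17-fold lower. Apoe, abundant in both astrocytes and activated microglia, had 6882, 10365 and 9958 against 15686, 13396 and 12297, without overlap and without passing (adjusted p 0.0551). Genes of MHC class II presentation rose in 8 of 9 tested cases, all 9 of them under 10 normalised reads in at least 1 GFP library. Those of MHC class I and antigen processing rose in 11 of 13 (median 1.77), with 3 of the 13 under that value in at least 1 GFP library. Another 2 class II and 3 class I genes were too low to test. Cd74, the invariant chain of class II, had 444, 284 and 299 against 24.1, 0 and 18.9.

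Most cytokine and chemokine genes with enough reads to be tested were higher in the mCh libraries. Of 19 listed genes 14 were tested, 13 rose and 5 were too low. Of the 14, 12 were under 10 normalised reads in at least 1 GFP library and passed the filter with the mCh libraries in which they were high, so the count describes these genes and the list's median is not read. Il1a, interleukin 1 alpha, had 5216, 1882 and 5132 normalised reads against 1.51, 6.29 and 2.52 in the GFP libraries, a difference of 9.85 ± 0.54 (adjusted p 3.18e-06). The chemokines Ccl3 and Ccl4 rose by 8.84 and 9.32, and Il1b by 7.47. Ccl12 had no read in the GFP libraries and was at least 187-fold higher. The exception was Il18, with 123, 152 and 228 against 394, 372 and 611, a difference of -1.46 ± 0.33 (adjusted p 0.00752). In the second mCh library the values of Il1a, Ccl4 and Il1b were the lowest of the group, as were the microglia markers.

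Immediate early genes are transcribed within minutes of many stimuli and of cell handling. They rose in 19 of 24 tested cases (79.2%, against 14% of all tested genes), with a median of 2.55. Of the 24, 3 were under 10 normalised reads in at least 1 GFP library. Egr1 had 25315, 24756 and 25478 normalised reads against 3374, 4589 and 5258, a difference of 2.54 ± 0.21. Its mCh values lay closer together than its GFP values. Zfp36, which encodes an RNA-destabilising protein, had 5030, 5792 and 6467 against 286, 322 and 252, 20.0-fold higher. Atf3, a stress-induced transcription factor, rose by 8.35, Jun by 2.56 and Fos by 1.46. The neuronal activity genes Arc and Npas4 did not pass, with differences of 0.28 and 1.44, nor did Nr4a2 and Nr4a3 (0.14 and 0.42). Of 11 heat shock and chaperone genes 5 (45.5%) rose, among them Hspa1a and Dnajb1, each by 2.78, and none fell in limma. Whether the immediate early genes came from the macrophages or from other cells of the sort cannot be told apart in bulk RNA. In the mCh neuron libraries described below, summed microglia markers overlapped those of the mCh astrocyte libraries, but summed immediate early genes were lower. The cause was not tested.

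Interferon genes were less uniform. Of 20 type I interferon response genes 7 (35%) rose and 1 (5%) fell, with a median of 0.98. Of all tested genes 14% rose and 12.1% fell. Of the 20 interferon genes, 6 were under 10 normalised reads in at least 1 GFP library. Oas2 had no read in the GFP libraries and was at least 48.1-fold higher, but its mCh values were 87.8, 23.3 and 82.8. Ifit1, Ifit2, Ifit3 and Rsad2 did not pass, with differences of 0.88, 0.70, 0.47 and 0.14. Cmpk2, a nucleotide kinase induced by interferon, fell by 1.43. In 1 fit over 12 libraries 2 of 20 rose. The number that rose was 1 of 17 without the first mCh library, 12 of 17 without the second and 2 of 17 without the third. The letters GAAANNGA, a core of the interferon response element, stood in 9 of 14 of these genes' promoters (64.3%) and in 20.3% of all. Of 15 genes of the GBP and IRG families of interferon-inducible GTPases and their regulator Irf1, 12 (80%) rose, with a median of 1.55. Of these 15, 2 were under 10 normalised reads in at least 1 GFP library. Iigp1 had 431, 189 and 358 against 22.6, 56.6 and 35.3.

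Metabolic genes fell in part. Of 16 tested genes of glycolysis and lactate, 9 fell (56.2%, against 12.1% of all tested genes). Aldoc, the aldolase of astrocytes, fell by 2.58 and Ldha by 1.46. Hk2, an inducible hexokinase, was the exception with 776, 489 and 1229 normalised reads against 16.6, 17.8 and 11.3, 48.6-fold higher. Of 18 genes of oxidative phosphorylation 7 (38.9%) fell and none rose in limma, with a median of -0.65. After scaling by total reads 2 fell. Ribosomal protein genes rose in 10 of 20 cases (50%, against 14% of all tested genes), with a median of 0.73. Of 14 lipoprotein and cholesterol genes, Clu, clusterin, fell by 3.45, Dbi, Scd2 and Sqle also fell, and the lipase Lpl (4.94) and the cholesterol exporter Abcg1 (2.92) rose. The share that rose, 14.3%, was near the 14% of all tested genes, and 28.6% fell against 12.1%. Malat1, a nuclear RNA, had 301789, 438288 and 216313 against 236431, 306279 and 369884 and did not differ beyond this spread, whereas Neat1, another nuclear RNA, was 10.3-fold higher.

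Among the genes with the largest rise among well-expressed called genes were Cd83, Il1a, Ccl4, Nlrp3, Ccl3, Abi3, Clec7a, Neurl3, Csf3r, Nlrp1b and Atf3. Cd83, a surface protein of activated antigen-presenting cells, had 2801, 1300 and 3567 normalised reads in the mCh libraries and 0, 4.20 and 0 in the GFP libraries. Nlrp3, an inflammasome sensor, had 2 reads in the GFP group, and the ratio of group totals was 1026 (95% counting interval 284 to 8478). Abi3 and Clec7a, a fungal glucan receptor, had 3 GFP reads each, with ratios of 594 (203 to 2883) and 491 (168 to 2381). Neurl3 and Nlrp1b had none and were each at least 289-fold higher. For all of these named genes the second mCh library held the lowest value of the group.

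The 12 genes with the largest fall were Fezf2, BC064078, Tst, Cml1, Otx1, Arhgef19, Gli2, Cth, Fam69c, Otx2, St6galnac5 and P2ry1. Fezf2, Otx1 and Otx2 are forebrain transcription factors and Gli2 is a factor of Hedgehog signalling. Fezf2 had no read in the first and the third mCh library and 18 reads in the second, against 245, 305 and 192 normalised reads in the GFP libraries, a difference of -6.73 ± 0.96 (adjusted p 0.000472). Otx1 had 7.91, 25.2 and 0.941 against 218, 457 and 363. Otx2 fell by 4.76 from uneven GFP values of 534, 175 and 60.5. St6galnac5, a sialyltransferase, had 26.9, 133 and 25.4 against 1427, 1264 and 1093. P2ry1, a purine receptor of astrocytes, had 10.3, 47.9 and 1.88 against 402, 219 and 355. Here the second mCh library was the highest of its group throughout.

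The second mCh library thus differed from the other two across lists. Its summed astrocyte markers were 15933 RPM against 7710 and 8556, and its summed microglia markers 6179 against 10506 and 13811. It was also higher in interneuron and oligodendrocyte genes: Gad2 had 427, 2641 and 246 normalised reads in the mCh libraries, and Mal, a myelin protein, 402, 2376 and 491. Without it, all 20 astrocyte markers remained lower and all 15 microglia markers then tested remained higher. The medians were then -3.17 for astrocytes and 6.49 for microglia.

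The same marker sums were read in the other bulb libraries of the series, recovered in the same way from other tables and set side by side without a test. Summed microglia markers ranged from 125 to 875 RPM over all 12 GFP astrocyte libraries (median 214) and from 6179 to 14040 over the 6 mCh astrocyte libraries. Over the 6 mCh neuron libraries of the same tissue they ranged from 5806 to 11800. Summed astrocyte markers ranged from 59290 to 76121 over the 12 GFP astrocyte libraries, from 2213 to 15933 over the 6 mCh astrocyte libraries, and from 9368 to 28637 over the 6 mCh neuron libraries. For both lists the mCh libraries of either label lay on the same side of all GFP libraries. Immediate early genes differed from this. They summed to 353 to 746 RPM in the mCh neuron, 7762 to 10984 in the mCh astrocyte and 136 to 1572 in the GFP libraries. Cytokine and chemokine genes summed to 75.8 to 179, 965 to 9450 and 27.9 to 119 RPM in the same order. Why the mCh neuron libraries were lower than the mCh astrocyte libraries was not tested.

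**Figure D4:**
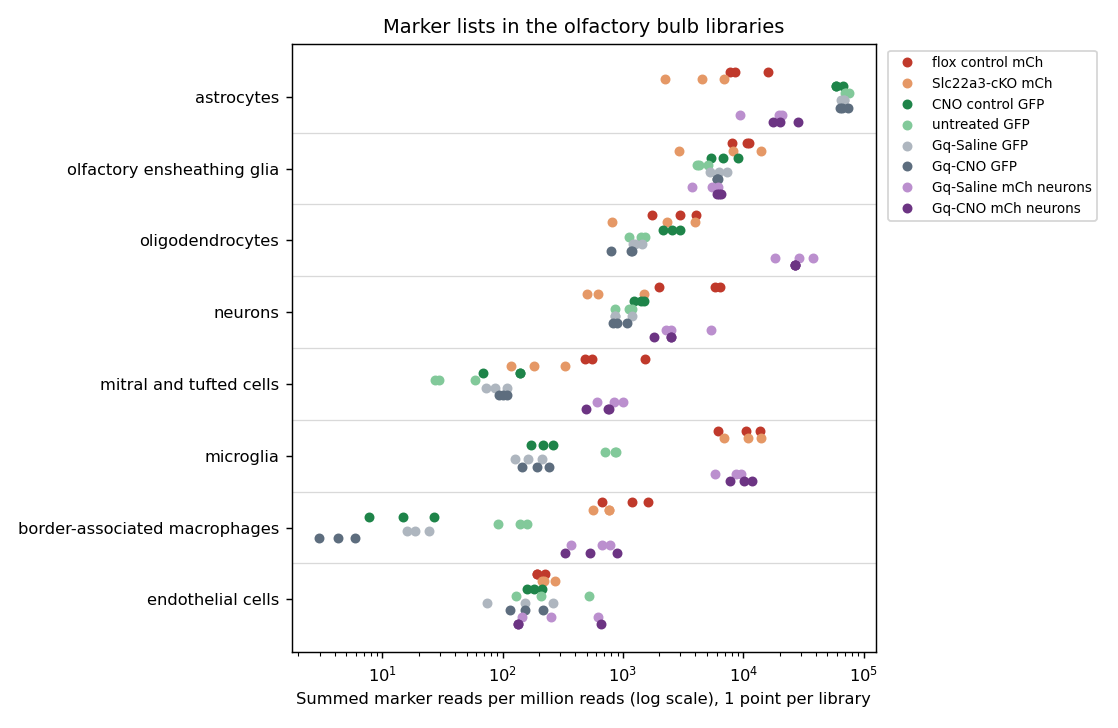
Summed RPM of 8 marker lists (log axis) in the 24 olfactory bulb libraries, with 1 point per library and 1 colour per group. Microglia markers reach at most 875 in the GFP astrocyte libraries and at least 5806 in every mCh library, and astrocyte markers are at least 59290 in the GFP libraries and at most 28637 in the mCh libraries.

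The other 6 astrocyte libraries of the same 2 tables, which share no library with the comparison above, gave a second look at the 2 labels. They are 3 mCh libraries of genotype Slc22a3-FF with treatment Gfap-Cre (labelled Slc22a3-cKO) and 3 GFP libraries of untreated Aldh1l1-GFP mice, with 1724893 to 2964862 gene reads in the GFP group. Genotype, treatment, label and table differ together here as well. The deposited names of these mCh libraries carry a DS number and those of the untreated GFP libraries do not. All libraries of the main comparison carry one, and its meaning is not stated. Summed nuclear noncoding RNAs were 2633 to 4810 RPM in the untreated and 25830 to 44458 in the CNO-control GFP libraries. Malat1 was 6.89-fold higher in mCh here, against 1.02-fold in the main comparison. Slc22a3 itself does not check the cKO label: it had 0, 0 and 12 reads in the libraries labelled Slc22a3-cKO, against 0 in all 3 flox control mCh libraries and in all 3 untreated GFP libraries. Of 11558 genes tested 4003 (34.6%) were called, 2223 (19.2%) higher and 1780 (15.4%) lower in mCh, at a median of 0.18. All 20 astrocyte markers fell again (median -4.04) and 15 of 16 microglia markers rose (3.59). Among the 11406 genes tested in both, 1137 were called higher in both, which is 70.1% of those higher in the first comparison and 53.2% of those in the second. Called lower in both were 1069 genes, 69.3% and 60.4% of the respective lists. In opposite directions 5 and 2 genes were called.

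Single lists differed in size between the comparisons, and the difference between comparisons was not tested. Of all genes tested in the second comparison, 19.2% were called higher and 15.4% lower. Immediate early genes rose in 22 of 22 cases with a median of 5.63, against 2.55 in the first comparison. Their summed levels were alike in both mCh groups, 8404 to 10031 RPM here and 7762 to 10984 in the flox control libraries. The GFP groups differed, with 162 to 386 RPM in the untreated and 1034 to 1572 in the CNO-control libraries. Type I interferon genes rose in 17 of 20 cases (3.47 against 0.98). General neuronal markers rose in 2 of 13 cases, near the share of all genes, with a median of 0.12, against 1.94. Oxidative phosphorylation genes fell in 15 of 18 cases (-2.06 against -0.65). They summed to 709 to 791 RPM in the mCh libraries labelled Slc22a3-cKO and to 2038 to 2581 in the untreated GFP libraries. In the first comparison the sums were 681 to 1301 RPM in mCh and 1368 to 1443 in GFP. Ensheathing glia markers rose in 4 and fell in 1 of 11 cases (0.83). Cryab, a small heat shock protein, was the one that fell (-3.10). The microglia marker Fcrls did not pass in the second comparison (0.79), against 6.10 in the first. In the untreated GFP libraries the summed microglia markers were 713 to 875 RPM, above the 171 to 262 of the CNO-control GFP libraries.

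**Figure D5:**
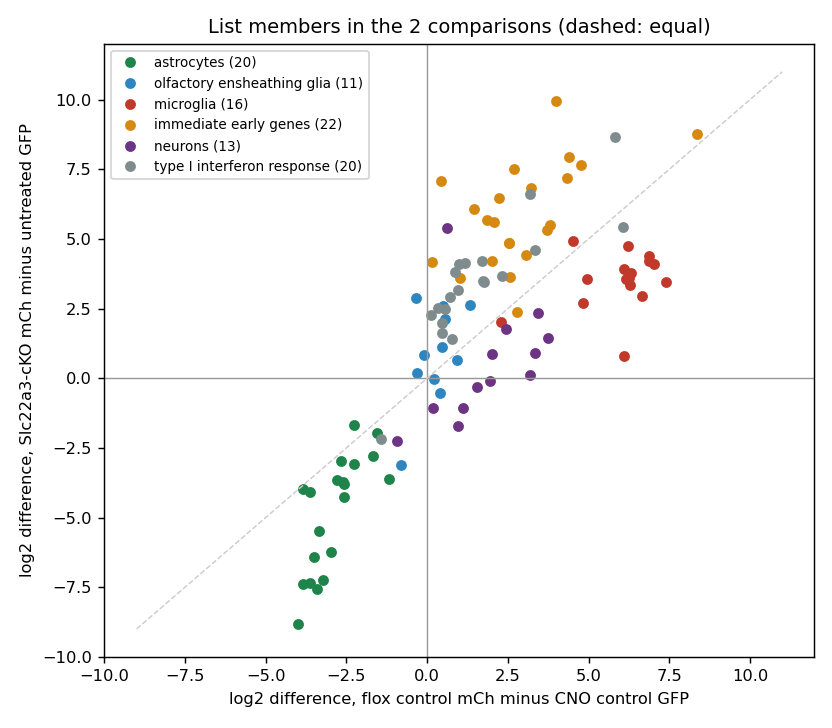
Difference of list members tested in both comparisons (log2, mCh minus GFP), with the flox control comparison on the horizontal and the comparison of libraries labelled Slc22a3-cKO on the vertical axis. Astrocyte markers lie at the lower left, 19 of 20 below the line of equality, microglia markers at the right, 15 of 16 below it, and immediate early genes above it with 1 exception.

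Slc22a3, the monoamine transporter gene that the floxed allele targets, was too low to test. It had 0 reads in the flox control mCh group and 7 in the CNO-control GFP group, all in 1 library. The libraries labelled Slc22a3-cKO held 12 reads, also all in 1 library. Counts this low do not check that label. Of 7 tested genes of monoamine transport, breakdown and transglutaminase, Maoa and Maob, the monoamine oxidases, fell. Maoa had 293, 292 and 379 normalised reads against 1066, 977 and 832, 2.98-fold lower, and Maob had 349, 380 and 323 against 691, 865 and 488, 1.89-fold lower. Tgm2, a transglutaminase, had 147, 203 and 269 against 75.3, 113 and 103 and did not pass (adjusted p 0.0648).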

How the data were processed

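Each deposited signal value is, per the file values, a gene's read count divided by 1 size factor per library, made by the authors separately in each table. The submitters' processing notes name FastQC 0.11.7, MultiQC 1.11, STAR 2.5.0a, DESeq2 1.30.1 and mm10. The counter and annotation are not given in the sources used here. The smallest positive value of a library was taken as 1 read, which made 100% of the deposited values whole (tolerance 0.05). Each table has 24421 gene entries, 27 with names turned into dates.

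The 6 libraries were scaled together by median-of-ratios factors, and genes with at least 10 normalised reads in at least 3 libraries were tested with limma 3.58.1 (R 4.3.3, trend, log2(value + 1), Benjamini-Hochberg, no block), as designed. This scale understates changes of low genes. edgeR 4.0.16 on the recovered reads called 3243 genes. The script was tested on simulated data. Exon lengths came from GENCODE (GRCm38), promoters from RefSeq (GRCm38.p6). Intervals and floors cover counting error only. Named were 14 preset genes, the 12 largest called differences per direction without overlap and with a mean of at least 158 in the higher group, excluding gene models, up to 4 genes per list by p, and list members against their list; others in the text were chosen after their values were seen, and some genes are not reported here. The comparison and all lists were chosen with earlier results of these data known.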

Additional observations from a re-analysis of the deposited data

How the results depend on the processing

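The calls were repeated under 19 alternatives. The number of called genes was 3477 in the first comparison and ranged from 2102 to 3416 when each library was left out in turn, with 891 to 1561 higher and 1058 to 1855 lower genes. Leaving out the first mCh library (2102 called, 891 higher), the third (1227 higher) or the first GFP library (1058 lower) moved a count by over 1.5 times. In 1 fit over 12 libraries 2145 genes were called, 897 of them lower. In the second comparison the 4003 calls ranged from 2619 to 3434, with 1209 to 1902 higher and 1114 to 1789 lower. There the first mCh library (1209 higher), the second (1419 higher), the second GFP library (1152 lower) and the third (1114 lower) each moved a count by that much. The cause was not tested, though fewer libraries also meant fewer genes tested.

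Libraries with the same replicate number did not deviate together (correlations of -0.003, -0.091 and -0.028 across genes in the first comparison). These are deviations from means of 3 libraries, so they show no pairing by number and cannot exclude one. A fit with the replicate number as a block called 3311 and 3939 genes. Of the genes named by rule, none called in either fit changed direction in any alternative. In the first comparison, 132 of 3386 gene results lost their call and 21 gained one; Top2a, Sdha and Npy lost it most often. The median of the synaptic genes turned to -0.15 without the second mCh library, and to 1.04 without the third, and that of endothelial markers in the second comparison to 0.19 with a minimum value of 50.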

Other observations

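No read of 4 Y-linked genes was found in any of the 3 mCh and 3 GFP libraries of the main comparison, and Xist, the RNA that coats the inactive X chromosome, was at 4056 to 6565 reads per 1000000 gene reads (RPM) in the mCh and 1740 to 2832 in the GFP libraries. The difference for Xist was 1.03 ± 0.26 (limma, adjusted p 0.0141). The mCh libraries labelled Slc22a3-cKO had 6706 to 11181 RPM of Xist and no Y-linked read. The untreated GFP libraries had 6.41 to 369, and 1 of them had Y-linked reads, so sex-linked genes also differ in the second comparison.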
